A study of Arabidopsis thaliana with 15 samples.

Results

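Seedlings of Arabidopsis thaliana given cercosporin at 0.1, 1 or 10 µM were taken as 1 group of 9 libraries and compared with the 3 control libraries, 12 of the 15 libraries of the series. All seedlings were wild type Col-0, 2 weeks old and harvested whole. The remaining 3 libraries, at 100 µM, stay outside this comparison. The question was what the lower doses share against the controls, beyond what 3 libraries of a single dose can show.

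All seedlings stood in water for at least 1 h before treatment. Treated seedlings were then placed in cercosporin solution in darkness for 1 h, washed 3 times with water and put in light of 30 µE for 30 min. Control plates received no toxin and stayed in light all along. Cercosporin, the dark hour, the return to light and the washes therefore separate treated from control seedlings together, and their effects cannot be told apart in the pooled contrast. Comparisons between doses share 1 light regime. Whether the 3 replicates of a group are separate cultures is not said in the labels; p-values cover the spread among these samples only, and that spread may be technical. The sample codes of 0.1 and 1 µM begin with 7, those of 10 µM with 8, and those of the controls with 7, 8 and 7; the labels do not say what this digit stands for.

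Cercosporin is a perylenequinone toxin of Cercospora fungi that passes light energy to oxygen and forms singlet oxygen. In Arabidopsis, singlet oxygen made in plastids is known to switch on stress genes, among them those for jasmonate synthesis. A period of darkness acts on other genes. Phytochrome signalling and sugar supply set the transcripts of light-harvesting proteins, of the dark-inducible genes SEN1 and ASN1 and of starch-degrading enzymes. Moving or wetting a plant raises touch and jasmonate genes within minutes.

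Transcripts were counted by bulk MARS-seq, a protocol that tags the 3' ends of polyadenylated RNA. Totals ran from 834190 counts (1 µM replicate 2) to 4554702 (10 µM replicate 3). Log2 CPM (counts scaled to a common library total after TMM adjustment) correlated across genes at 0.945 to 0.973 within groups and at 0.937 to 0.974 between groups, and genes are not independent replicates. The biological coefficient of variation was 17.0%. Leaf genes for light harvesting and 11 root marker genes were detected in all 12 libraries. Because the RNA came from whole seedlings, fewer cells of a type and less RNA per cell cannot be told apart.

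The pooled doses differed from the controls in no gene at the threshold. Of 9716 genes tested, 0 (0.0%) passed an adjusted p of 0.05 in edgeR's quasi-likelihood test of the mean of the 3 doses against the controls, and 688 (7.08%) had an unadjusted p under 0.05, 256 higher (2.63%) and 432 lower (4.45%). With the same contrast DESeq2 called 17 genes, 2 higher and 15 lower, and limma-voom called 1. DESeq2 gave no adjusted p to 6593 of the 9716 genes, so its adjustment covered fewer genes. Its unadjusted p was under 0.05 in 531 genes. Leaving out 1 µM replicate 2 or 10 µM replicate 1 gave 1 called gene, CAB2. The lowest adjusted p in edgeR was 0.0737, that of CAB2 (AT1G29920), a gene for a chlorophyll-binding antenna protein of photosystem II. The median log2 fold change over all genes was -0.01.

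Pooling narrowed the error. The median standard error of a log2 fold change was 0.21 for the pooled contrast, against 0.25, 0.26 and 0.25 for 0.1, 1 and 10 µM alone. The 95% interval of the pooled change lay within 1 log2 unit of 0, a 2-fold change, for 7709 genes (79.3%). Among the 7035 genes with a mean of at least 10 CPM in the higher group it did so for 6616 (94.0%). A change of 2-fold or more in the mean of the doses lay outside the interval of those genes.

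**Figure D1:**
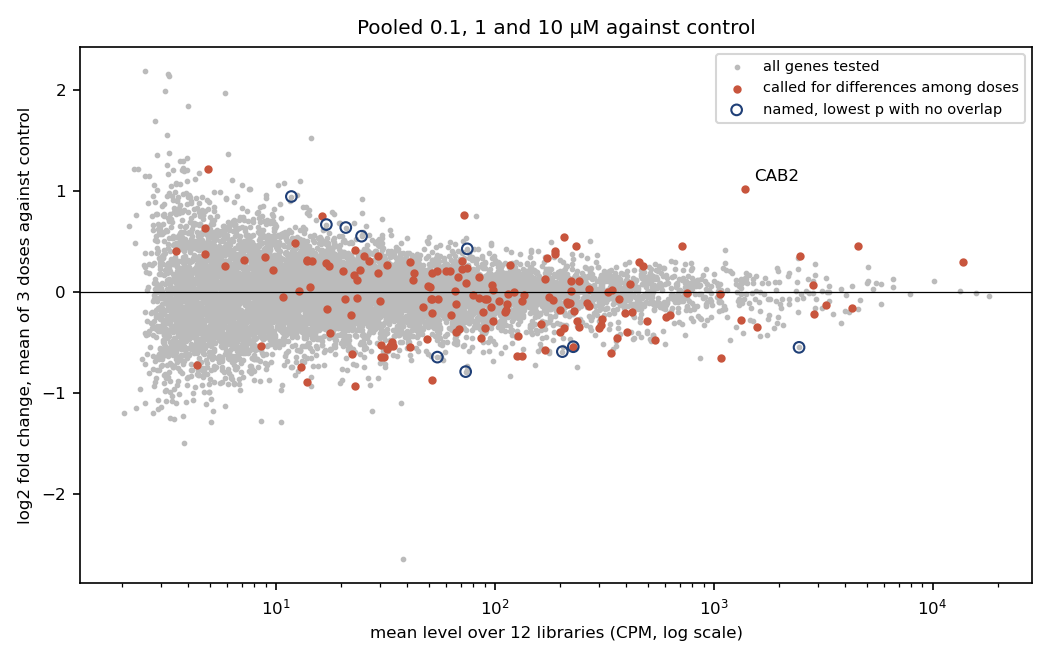
Each point is 1 of 9716 genes, with the mean level over 12 libraries (CPM, log axis) against the log2 fold change of the mean of 3 doses over control. CAB2 lies at 1.02 at a high level, and the genes called for differences among doses (157, filled) lie on both sides of 0; open circles mark the 10 genes named for lowest p with no overlap.

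In the pooled contrast, 105 genes (1.08%) had all 9 treated libraries on one side of all 3 controls, 53 higher (0.545%) and 52 lower (0.535%). With 9 treated and 3 control libraries there are 220 arrangements, of which 1 puts all treated libraries above and 1 all below. The count alone therefore does not show a shared change. Without control replicate 1, 2 or 3 the count was 529, 353 and 329, since fewer controls are easier to clear. The 5 of lowest p in each direction, with a mean of at least 10 CPM, are given as values, since none passed the adjusted threshold.

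Among those lower in all treated libraries was UBQ11 (AT4G05050), a polyubiquitin gene. It stood at 3046, 3553 and 3006 CPM in the controls, 2462, 2561 and 2223 at 0.1 µM, 1763, 1988 and 1723 at 1 µM and 2130.4, 2677 and 2364 at 10 µM. The 1 µM libraries were the lowest, and those of 0.1 and 10 µM lay between them and the controls. Its pooled log2 fold change was -0.55 ± 0.10 (95% interval -0.76 to -0.34, edgeR adjusted p = 0.114).

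MLP43 (AT1G70890), which codes for a major latex protein-like protein, was at 76.3, 72.9 and 76.7 CPM in the controls, 48.6, 38.4 and 38.9 at 0.1 µM, 53.3, 42.6 and 56.5 at 1 µM and 47, 56.2 and 50.5 at 10 µM. The ranges of the 3 doses overlapped one another below the controls, with log2 fold changes of -0.84, -0.54 and -0.55 at 0.1, 1 and 10 µM. The pooled value was -0.64 ± 0.12 (edgeR adjusted p = 0.115).

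The uncharacterised gene AT5G17350 was also lower in all 9 treated libraries, with 85.5 to 138 CPM in the controls and 49.5 to 80.1 CPM (median 62.2) in the treated libraries. Its pooled log2 fold change was -0.79 ± 0.16 (edgeR adjusted p = 0.142). AT3G16670, a gene of the pollen Ole e 1 family, had 246 to 319 CPM in the controls and 142 to 229 CPM (median 178) in the treated libraries, with a log2 fold change of -0.59 ± 0.14 (edgeR adjusted p = 0.297).

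AT2G35290, an uncharacterised gene, was uneven across doses. Its levels were 305, 294 and 279 CPM in the controls, 236, 244 and 265 at 0.1 µM, 144, 154 and 124 at 1 µM and 207, 237 and 257 at 10 µM. The 1 µM libraries lay below all others, and those of 0.1 and 10 µM lay between them and the controls. The pooled log2 fold change of -0.54 ± 0.10 (edgeR adjusted p = 0.115) came with single-dose values of -0.24, -1.07 and -0.32, and the gene was called for differences among doses (edgeR adjusted p = 0.00406).

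Higher in all 9 treated libraries was SSI2 (AT2G43710), the plastid stearoyl-ACP desaturase that makes oleic acid and whose loss is known to raise salicylate defence. Its levels were 5.98, 5.83 and 8.7 CPM in the controls, 14.1, 10.4 and 10.8 at 0.1 µM, 10.8, 16.1 and 14.4 at 1 µM and 20.3, 13.3 and 11.1 at 10 µM. The log2 fold change was 0.95 ± 0.27, with an edgeR adjusted p of 0.425. The 0.1, 1 and 10 µM libraries overlapped one another.

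TRM9 (AT1G31600), annotated as an RNA-binding protein, had 9.91 to 12.9 CPM in the controls and 14.2 to 27.6 CPM (median 18) in the treated libraries and a log2 fold change of 0.67 ± 0.20. AT1G48900, an SRP54 subunit of the signal recognition particle, had 55.6 to 63 CPM in the controls and 70.2 to 104 CPM (median 76.2) in the treated libraries and a log2 fold change of 0.43 ± 0.13. AT1G05070, of unknown function, had 17.5 to 18.5 CPM in the controls and 22.5 to 38 CPM (median 25.4) in the treated libraries and a log2 fold change of 0.55 ± 0.18. PHYD (AT4G16250), the photoreceptor phytochrome D, had 12 to 17.5 CPM in the controls and 17.6 to 32.2 CPM (median 22.4) in the treated libraries and a log2 fold change of 0.64 ± 0.21. Adjusted p (edgeR) ran from 0.49 to 0.54 in these 4 genes. None of the 10 genes had a near-identical copy at the 3' end.

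**Figure D2:**
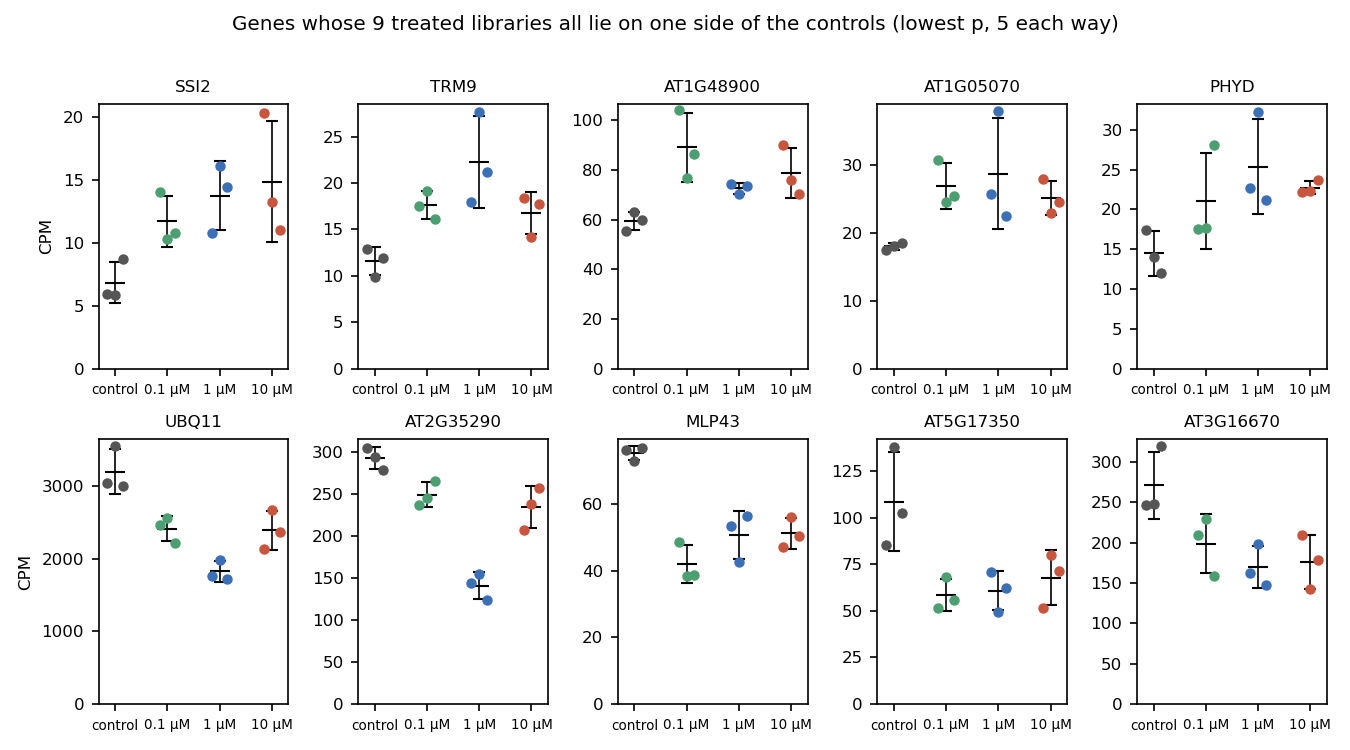
CPM in each of the 12 libraries (points) with the mean and SD of 3 libraries (bars) for the 5 genes of lowest p higher and the 5 lower in all treated libraries. UBQ11 and AT2G35290 are lowest at 1 µM, while the doses overlap one another for MLP43 and AT5G17350.

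A total of 27 gene lists describe the pathways that light, darkness, wetting and the toxin are known to touch. Their 476 entries name 462 genes, since some genes stand in more than 1 list. The lists held 355 tested genes, of which 17 had an unadjusted p under 0.05 and a higher level and 45 a lower one. Over all 9716 genes the shares with such a p were 2.63% higher and 4.45% lower. Of all genes, 4987 had a pooled value below 0 and 4729 one above 0. In every list 0 genes were called by the edgeR test of the pooled contrast, and every value given for a list in that contrast describes genes that did not pass. At 1 µM alone, which shares the controls, the same test called 10 genes higher (0.103%) and 46 lower (0.473%). Among them were 6 of 18 light-harvesting genes, all higher. Those lower included 3 of 13 jasmonate synthesis genes, 3 of 9 jasmonate breakdown genes, 4 of 18 heat shock genes and 2 of 5 DREB and CBF genes. The summed LHCB2 genes were higher at 1 µM by 0.99 ± 0.18 log2 (edgeR adjusted p = 0.0187).

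Genes known to follow darkness and light showed small differences in the pooled contrast, where doses of opposite sign can cancel. Of 15 tested dark and starvation genes none had an unadjusted p under 0.05, and their median log2 fold change was 0.08. The medians at 0.1, 1 and 10 µM were 0.09, 0.24 and -0.18. SEN1 (AT4G35770) had 1031 to 1084 CPM in the controls and 749 to 1761 CPM (median 1164) in the treated libraries, with a log2 fold change of 0.21 ± 0.15. ASN1 (AT3G47340), the dark-inducible asparagine synthase, had 1172 to 1412 CPM in the controls and 1133 to 2183 CPM (median 1364) in the treated libraries, with 0.17 ± 0.13 on the log2 scale. Treated and control ranges overlapped in both. Of 14 listed acute light genes only 6 could be tested, and none had an unadjusted p under 0.05 (median -0.05). Their medians at 0.1, 1 and 10 µM were -0.02, -0.35 and 0.27. HY5 (AT5G11260), the bZIP factor of light growth, stood at -0.17 ± 0.14 log2 and RUP2 (AT5G23730), a repressor of UV-B signalling, at 0.41 ± 0.48 log2.

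PIF4 (AT2G43010) and PIL6 (AT3G59060), also known as PIF5, code for phytochrome-interacting factors that promote growth in shade and darkness. PIF4 was at 9.19, 9.33 and 18 CPM in the controls, 24.6, 23.8 and 21.5 at 0.1 µM, 30.5, 11.5 and 25 at 1 µM and 19.7, 15.4 and 14.2 at 10 µM, and 3 treated libraries, 1 at 1 µM and 2 at 10 µM, lay within the control range. Its log2 fold change was 0.77 ± 0.26 (unadjusted p = 0.00941, edgeR adjusted p = 0.542). PIL6 was at 175 to 217 CPM in the controls and 207 to 307 CPM (median 264) in the treated libraries and 0.37 ± 0.13 log2 (unadjusted p = 0.0121, edgeR adjusted p = 0.567).

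Among light-harvesting genes values lay mostly above 0. Of 18 tested, 17 had a value above 0 and 8 an unadjusted p under 0.05 in that direction, with a median of 0.26. The median was 0.30 at 0.1 µM, 0.54 at 1 µM and -0.06 at 10 µM. CAB2 was at 697, 619 and 771 CPM in the controls, 1477, 1540.4 and 1172 at 0.1 µM, 3155, 2103 and 3079 at 1 µM and 527, 729 and 904 at 10 µM. Every library of 0.1 and 1 µM lay above the controls, and the 10 µM libraries lay across the control range. The pooled log2 fold change was 1.02 ± 0.16 (95% interval 0.68 to 1.36, edgeR adjusted p = 0.0737), with 1.01, 2.00 and 0.05 at the single doses.

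LHCB3 (AT5G54270), another antenna protein gene, was at 589, 487 and 549 CPM in the controls, 871, 713 and 639 at 0.1 µM, 1015, 925 and 1375 at 1 µM and 464, 549.7 and 476 at 10 µM. Here too the 0.1 and 1 µM libraries were above all controls and the 10 µM libraries were not. The pooled value was 0.45 ± 0.13 log2 (edgeR adjusted p = 0.429). CAB2 is one of the 5 LHCB1 genes. These and the 3 LHCB2 genes resemble one another, and counting could split reads between copies. CAB2 itself had no near-identical copy at the 3' end. The summed LHCB1 genes were at 38073, 26651 and 37313 CPM in the controls, so CAB2 was a small part of them. At 1 µM their sum was higher by 0.47 ± 0.17 log2 (edgeR adjusted p = 0.325), so it did not bear out the rise of CAB2. Summed, the LHCB1 genes had a pooled log2 fold change of 0.22 ± 0.14 (edgeR adjusted p = 0.772) and the LHCB2 genes one of 0.35 ± 0.15 (edgeR adjusted p = 0.642).

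The 37 other genes of the photosystems and the Calvin cycle had a median of 0.06. PSAF (AT1G31330), a photosystem I subunit, was at 53.9 to 98.8 CPM in the controls and 66 to 139 CPM (median 105) in the treated libraries, a log2 fold change of 0.48 ± 0.19 (edgeR adjusted p = 0.615). RBCS1B (AT5G38430), a small subunit of Rubisco, was at 2142, 852 and 1176 CPM in the controls, 761, 607 and 605 at 0.1 µM, 626, 615 and 683 at 1 µM and 2021, 1374 and 1571 at 10 µM. The 0.1 and 1 µM libraries lay below all controls and the 10 µM libraries among them. Its pooled value was -0.65 ± 0.19 log2 (edgeR adjusted p = 0.425).

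Of 10 starch breakdown genes 3 had an unadjusted p under 0.05, all lower (median -0.24). CT-BMY (AT4G17090), the chloroplast beta-amylase, was at 491, 352 and 459 CPM in the controls, 219.8, 227 and 260.0 at 0.1 µM, 192, 147 and 247 at 1 µM and 384, 437 and 661 at 10 µM. The order repeated that of RBCS1B, with 0.1 and 1 µM below the controls and 10 µM overlapping them. The pooled log2 fold change was -0.61 ± 0.16 (edgeR adjusted p = 0.353). BAM1 (AT3G23920), a second beta-amylase, was at 150.1 to 204 CPM in the controls and 90.5 to 144 CPM (median 133) in the treated libraries, all treated libraries below the controls, with -0.39 ± 0.13 log2 (edgeR adjusted p = 0.542).

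Most jasmonate genes had values below 0. Of 13 synthesis genes 11 had values below 0 and 7 an unadjusted p under 0.05 (median -0.30). The medians at 0.1, 1 and 10 µM were -0.44, -0.75 and 0.01. LOX3 (AT1G17420), a lipoxygenase of the first step, was at 153, 185 and 200.2 CPM in the controls, 102, 118 and 112 at 0.1 µM, 101, 67.9 and 96.6 at 1 µM and 144, 158 and 165 at 10 µM. The 0.1 and 1 µM libraries lay below all controls, and 2 of the 10 µM libraries lay in their range. Its pooled log2 fold change was -0.63 ± 0.12 (95% interval -0.88 to -0.38, edgeR adjusted p = 0.115). AOC1 (AT3G25760), an allene oxide cyclase, had 143 to 205 CPM in the controls and 73.1 to 169.9 CPM (median 115) in the treated libraries and -0.57 ± 0.15 log2 (edgeR adjusted p = 0.375).

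All 9 jasmonate breakdown genes had values below 0, and 4 an unadjusted p under 0.05 (median -0.39). CYP94B3 (AT3G48520), which hydroxylates the active hormone jasmonoyl-isoleucine, was at 197, 169.7 and 138 CPM in the controls, 125, 133 and 132 at 0.1 µM, 72.5, 73.7 and 64.8 at 1 µM and 151, 129 and 140.3 at 10 µM. The 1 µM libraries were apart from all others. The pooled value was -0.63 ± 0.11 log2 (95% interval -0.87 to -0.40, edgeR adjusted p = 0.114), with -0.37, -1.27 and -0.27 at the single doses. AT5G05600, a dioxygenase known to oxidise jasmonic acid, had 407 to 564 CPM in the controls and 267 to 543 CPM (median 344) in the treated libraries and -0.39 ± 0.11 log2 (edgeR adjusted p = 0.425).

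The 10 jasmonate signalling genes had a median of -0.32, with 2 below an unadjusted p of 0.05. JAZ5 (AT1G17380), a repressor that jasmonate itself induces, was at -0.53 ± 0.22 log2 and MYC2 (AT1G32640), the main transcription factor of the pathway, at -0.33 ± 0.15 log2. Their edgeR adjusted p-values were 0.624 and 0.679. The 4 touch and calcium genes tested were all below 0 (median -0.28), among them CML37 (AT5G42380, -0.63 ± 0.25 log2) and TCH3 (AT2G41100, -0.16 ± 0.09 log2), both coding for calmodulin-like proteins. CML37 had an edgeR adjusted p of 0.615 and TCH3 one of 0.766.

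Markers of singlet oxygen, the product of cercosporin in light, were not higher in the pooled doses. Of 15 tested, 12 had values below 0 and 3 an unadjusted p under 0.05, all lower (median -0.20). Besides LOX3 the lowest p was that of LOX4 (AT1G72520), a second lipoxygenase, with 77.2 to 108 CPM in the controls and 44.9 to 98.3 CPM (median 65.3) in the treated libraries and -0.44 ± 0.14 log2 (edgeR adjusted p = 0.539). Both LOX3 and LOX4 also belong to the jasmonate synthesis list. The median of the singlet oxygen list was -0.27 at 0.1 µM, -0.50 at 1 µM and 0.26 at 10 µM.

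Detoxification genes, which act on foreign compounds, and antioxidant genes also held 0 called members. The 16 detoxification genes had a median of -0.18. GSTF8 (AT2G47730), a glutathione transferase, was at 2288 to 2616 CPM in the controls and 1572 to 2958 CPM (median 1851) in the treated libraries and -0.33 ± 0.12 log2, and GSTU19 (AT1G78380) at -0.27 ± 0.12 log2. The 16 antioxidant genes had a median of 0.03. APX1 (AT1G07890), the cytosolic ascorbate peroxidase, was at 1382, 1714 and 1899 CPM in the controls, 1151, 1289.5 and 1033 at 0.1 µM, 1022, 1171 and 1171 at 1 µM and 1426, 1567 and 1606 at 10 µM. Its 0.1 and 1 µM libraries were below all controls and its 10 µM libraries were within their range. The pooled value was -0.40 ± 0.11 log2 (edgeR adjusted p = 0.353), and that of VTC2 (AT4G26850), an enzyme of ascorbate synthesis, was -0.32 ± 0.16 log2 (edgeR adjusted p = 0.714).

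Heat shock and chaperone genes had a median of -0.43, with 15 of 18 below 0 and 7 with an unadjusted p under 0.05, all lower. The medians were -0.14, -0.90 and 0.04 at 0.1, 1 and 10 µM. HSP70 (AT3G12580) was at 206, 288 and 149 CPM in the controls, 141, 177 and 130.4 at 0.1 µM, 73.7, 58.7 and 123 at 1 µM and 121, 179.6 and 194 at 10 µM. The ranges of 0.1 and 10 µM overlapped that of the controls, and 1 µM lay below it. HSP70 stood at -0.72 ± 0.20 log2 (edgeR adjusted p = 0.389) and AT1G53540, a small heat shock protein gene, at -0.92 ± 0.26 log2 (edgeR adjusted p = 0.425).

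Among stress transcription factors, the 5 DREB and CBF genes tested had the lowest median, -0.64. DDF1 (AT1G12610) was at 96.5, 60.1 and 64.7 CPM in the controls, 41, 52.2 and 50.4 at 0.1 µM, 22.8, 40.3 and 17.3 at 1 µM and 69.8, 53.5 and 51.6 at 10 µM. Every 0.1 µM and 1 µM library was below the controls, and at 10 µM 1 library lay among them. Its pooled value was -0.86 ± 0.19 log2 (edgeR adjusted p = 0.213). AT1G22810, of the same AP2 family, had -0.64 ± 0.22 log2 pooled and -0.65, -1.74 and 0.45 at the single doses (pooled edgeR adjusted p = 0.549).

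The 15 ERF and ethylene genes had a pooled median of -0.07, with -0.16, -0.41 and 0.14 at 0.1, 1 and 10 µM. Among them 4 were called for differences among doses, against 1.62% of all genes. RRTF1 (AT4G34410), a redox-responsive factor, was at -0.52 ± 0.18 log2 and ERF104 (AT5G61600) at 0.38 ± 0.15 log2. ERF104 was higher at 10 µM than in any other library, with 143, 142 and 167 CPM in the controls, 139.9, 185 and 187 at 0.1 µM, 195, 142 and 126 at 1 µM and 250.2, 261 and 342 at 10 µM. The 12 ZAT and WRKY genes had a pooled median of -0.12, with -0.24, -0.34 and 0.20 at 0.1, 1 and 10 µM. Of these 12, 3 were called for differences among doses. WRKY18 (AT4G31800) was at -0.62 ± 0.22 log2 and ZF2 (AT3G19580), a zinc finger repressor, at -0.29 ± 0.16 log2. Adjusted p (edgeR, pooled contrast) ran from 0.567 to 0.740 in RRTF1, ERF104, WRKY18 and ZF2.

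The water-related lists held 0 called genes in the pooled contrast. The 18 aquaporins had a pooled median of -0.02, with -0.07, 0.26 and -0.17 at 0.1, 1 and 10 µM. Of these 18, 3 were called for differences among doses, against 1.62% of all genes. PIP3 (AT4G35100), a plasma membrane aquaporin, was at 11, 6.41 and 8.7 CPM in the controls, 15.5, 13 and 13.8 at 0.1 µM, 24.6, 21.9 and 20.5 at 1 µM and 12.7, 10.6 and 12.4 at 10 µM. A single 10 µM library lay within the control range and the others above it. PIP3 had 0.81 ± 0.22 log2 (edgeR adjusted p = 0.353), and PIP1A (AT3G61430) had 0.30 ± 0.13 log2 (edgeR adjusted p = 0.628). Of the 15 genes of hypoxia and submergence 11 had values above 0, with a median of 0.26 as for light harvesting and none under an unadjusted p of 0.05. AT5G15120, a cysteine oxidase gene of the hypoxia response, was at -0.57 ± 0.29 log2 and AT3G10040, a trihelix factor of the same response, at 0.62 ± 0.33 log2. Of 23 abscisic acid, cold and dehydration genes 5 were lower at an unadjusted p under 0.05 (median -0.03), RD22 (AT5G25610, -0.37 ± 0.13 log2) and HB-12 (AT3G61890, -0.52 ± 0.22 log2) among them.

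The other lists also held 0 called genes. Salicylate and immune genes (13 tested) had a median of -0.34. RBOHD (AT5G47910), the NADPH oxidase of the oxidative burst, was at 104 to 115 CPM in the controls and 65 to 106 CPM (median 83.2) in the treated libraries, a log2 fold change of -0.34 ± 0.14. EDS5 (AT4G39030), a transporter needed for salicylate build-up, was at 16.6, 67.6 and 16.3 CPM in the controls, 12.6, 17.6 and 19.6 at 0.1 µM, 26.3, 11.5 and 22.5 at 1 µM and 23.5, 28.7 and 17 at 10 µM. Its value of -0.72 ± 0.34 log2 rests on control replicate 2, and without that library it was 0.28.

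Flavonoid genes (12 tested) had a median of -0.43. TT4 (AT5G13930), chalcone synthase, was at 53.6 to 81.8 CPM in the controls and 26.1 to 74.1 CPM (median 38.9) in the treated libraries and -0.62 ± 0.24 log2, and FLS1 (AT5G08640), flavonol synthase, was at 5.44 to 7 CPM in the controls and 0.385 to 6.98 CPM (median 3.21) in the treated libraries and -1.0 ± 0.39 log2. Their edgeR adjusted p-values were 0.614 and 0.604.

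Clock genes (13 tested, median -0.02), auxin genes (9, median 0.10), growth and wall genes (10, median 0.06) and ribosomal protein genes (20, median 0.07) stood near 0. GI (AT1G22770), a clock gene, was at 0.27 ± 0.17 log2 and BOA (AT5G59570) at -0.25 ± 0.14 log2. GH3.3 (AT2G23170), which conjugates auxin, was at 0.45 ± 0.21 log2 and IAA7 (AT3G23050), an auxin repressor, at 0.18 ± 0.11 log2. EXPA1 (AT1G69530), an expansin, was at 0.75 ± 0.25 log2 and XTR6 (AT4G25810), a xyloglucan-modifying enzyme, at -0.54 ± 0.18 log2. The ribosomal genes AT2G19730 and AT3G09200 were at 0.29 ± 0.10 and 0.23 ± 0.11 log2. Adjusted p (edgeR) ran from 0.542 to 0.767 in these 8 genes.

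**Figure D3:**
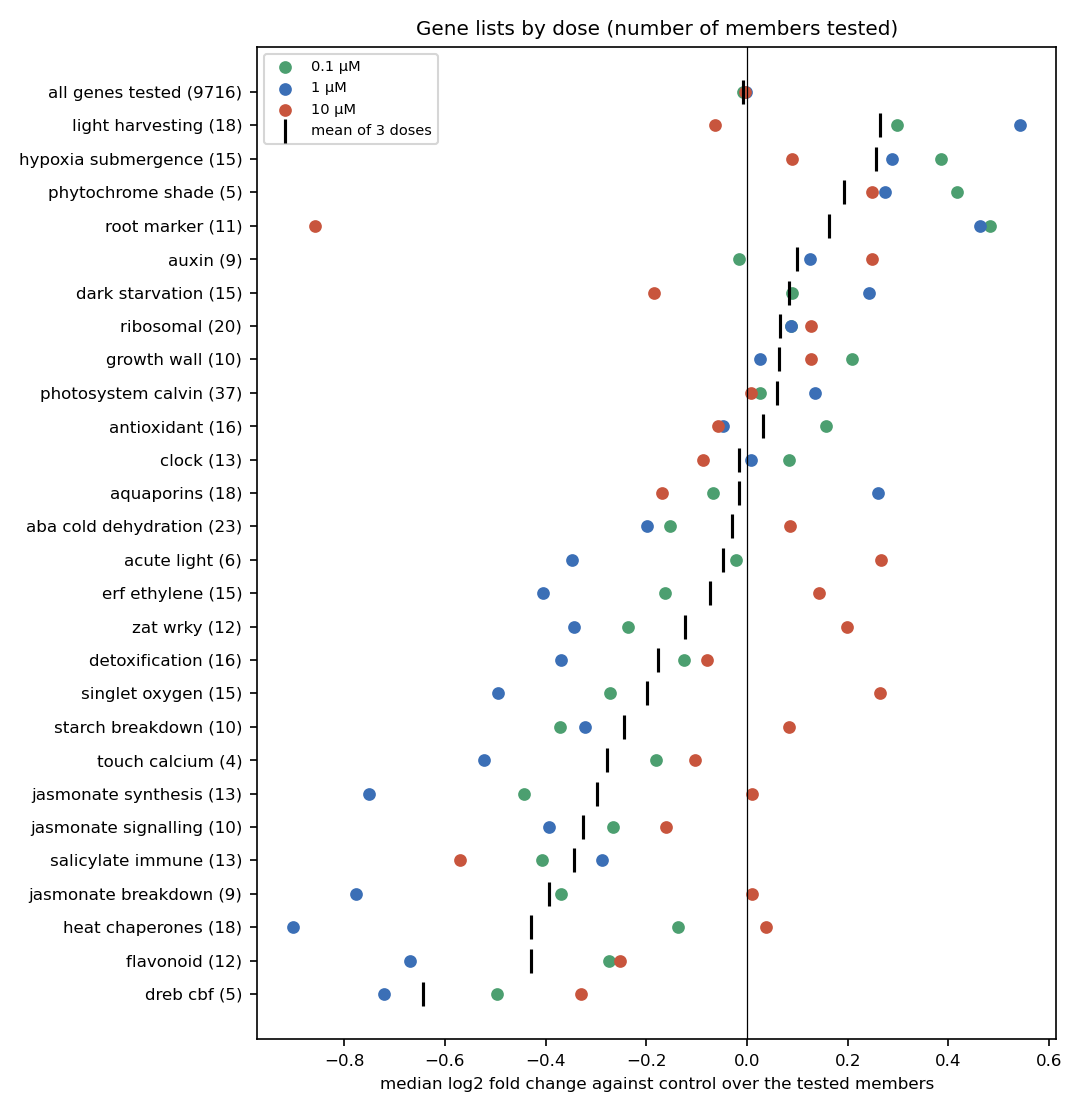
Median log2 fold change against control over the tested members of each list (number in brackets), at 0.1, 1 and 10 µM (points) and for the mean of the doses (bars), with all 9716 genes at the top. Light-harvesting genes lie at 0.54 and jasmonate synthesis genes at -0.75 at 1 µM, while at 10 µM they lie at -0.06 and 0.01.

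The pooled doses were not alike. The test of differences among 0.1, 1 and 10 µM, which uses no control library in its contrast, called 157 of 9716 genes (1.62%) in edgeR. In pairs, 10 µM against 1 µM gave 232 genes (2.39%), 141 higher (1.45%) and 91 lower (0.937%), 10 µM against 0.1 µM gave 8 higher (0.0823%) and 25 lower (0.257%), and 1 µM against 0.1 µM gave 0 higher and 3 lower (0.0309%). These pairs were compared in 1 fit with adjustment over the genes of each pair.

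Of the 157 genes, 85 had the lowest mean at 1 µM and the highest at 10 µM, and 37 the reverse, with 0.1 µM between. Over all 9716 genes these orders were found in 2061 and 1893. A mean that increased at each step of dose was found in 7 of the 157 and in 1265 of all genes, and one that decreased at each step in 18 and in 1321. In 139 (88.5%) the control mean lay between the lowest and the highest dose mean, against 5232 of all genes (53.8%); the 157 were chosen for their spread among doses, so this is a description.

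Because 10 µM alone has codes beginning with 8 among the treated libraries, its difference from the other doses cannot be told apart from whatever the digit marks, except through the controls, where replicate 2 begins with 8. With the digit as a term in the fit, 11 genes were called for differences among doses. That term rests on control replicate 2 against the other controls, so the lower count cannot decide what the digit contributes. Without 1 µM replicate 1, 2 or 3 the count was 74, 82 and 55, without 10 µM replicate 3 it was 51, and with counts thinned to the smallest total it was 23. Of the 157 genes, 15 had a near-identical copy at the 3' end. Leaving out all genes with such a copy reduced the tested genes from 9716 to 9352, and 142 were then called among doses.

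The 12 genes of lowest p in this test, chosen after their values were seen, were led by AT5G51190, an AP2/ERF transcription factor gene. It was at 35.9, 43.7 and 52.8 CPM in the controls, 44.2, 33.4 and 42.7 at 0.1 µM, 26.3, 19.6 and 25.7 at 1 µM and 128, 103 and 169 at 10 µM. The 10 µM libraries were above all others and the 1 µM libraries below all others, a log2 difference of 2.44 ± 0.22 between 10 and 1 µM (edgeR adjusted p over the doses = 1.44e-05). ERF13 (AT2G44840), a related factor, was at 34, 47.8 and 39.7 CPM in the controls, 19.3, 23.8 and 26.2 at 0.1 µM, 17.4, 9.21 and 17.6 at 1 µM and 35.6, 81.6 and 60.4 at 10 µM. The 0.1 and 1 µM libraries lay below the controls and 2 of the 10 µM libraries above them. It differed by 1.94 ± 0.28 log2 between 10 and 1 µM (edgeR adjusted p over the doses = 0.00203).

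Of 18 light-harvesting genes 7 were among the 157, against 1.62% of all genes. The lists were chosen with earlier results of these data known, so such counts are descriptions. CAB2 was lower at 10 than at 1 µM by -1.95 ± 0.19 log2 (edgeR adjusted p = 3.35e-05). LHCB2.1 (AT2G05100) was at 130.1, 108 and 158 CPM in the controls, 201, 219 and 156 at 0.1 µM, 377, 243 and 429 at 1 µM and 66, 88.3 and 81.7 at 10 µM. Its 1 µM libraries were above and its 10 µM libraries below every control. LHCB2.2 (AT2G05070) was at 165, 106 and 162 CPM in the controls, 235, 240.1 and 165 at 0.1 µM, 374, 279.7 and 415 at 1 µM and 100.3, 130.3 and 129 at 10 µM, with the 1 µM libraries above all others. The summed LHCB2 genes differed among doses (edgeR adjusted p = 0.00375), and for the summed LHCB1 genes that p was 0.194. The others called were LHCB3, CAB3 (AT1G29910), LHB1B2 (AT2G34420) and the photosystem I antenna gene LHCA4 (AT3G47470), of which CAB3 and LHB1B2 have near-identical copies.

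Jasmonate genes lay the other way. Of 13 synthesis genes 5 were called among doses, against 1.62% of all genes. They were LOX2 (AT3G45140), LOX3, AOS (AT5G42650), AOC2 (AT3G25770) and AOC3 (AT3G25780), and each was higher at 10 than at 1 µM. AOC3, an allene oxide cyclase, was at 214, 290.3 and 285 CPM in the controls, 248, 252 and 247 at 0.1 µM, 154, 111 and 114 at 1 µM and 276, 309 and 369.9 at 10 µM. Its 1 µM libraries stood apart below all others, by 1.34 ± 0.16 log2 from 10 µM (edgeR adjusted p = 0.000313). Of 9 breakdown genes 4 were called, CYP94B3, CYP94C1 (AT2G27690), AT5G05600 and AT2G38240, also higher at 10 µM. AOC3, CYP94B3 and AT2G35290 were the 3 genes lower at 1 than at 0.1 µM, each with an edgeR adjusted p of 0.0391; both doses have codes beginning with 7.

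Further stress genes followed that order. Among heat shock genes 4 of 18 were called, where the share over all genes was 1.62%. They were HSP17.6A (AT5G12030), HSP81-2 (AT5G56030), HSP81-3 (AT5G56010) and MBF1C (AT3G24500). Each was higher at 10 than at 1 µM, by 1.62 ± 0.33, 0.95 ± 0.18, 0.88 ± 0.15 and 1.00 ± 0.18 log2. Singlet oxygen markers gave 5 of 15: LOX3, STZ (AT1G27730, 1.22 ± 0.21), WRKY40 (AT1G80840, 1.02 ± 0.25, with a near-identical copy), ERF4 (AT3G15210, 0.64 ± 0.12) and BAP1 (AT3G61190, 1.12 ± 0.24). Each of these was higher at 10 than at 1 µM. They are not all separate from the other lists. LOX3 was counted above for jasmonate synthesis, STZ and WRKY40 also belong to the ZAT and WRKY list, and ERF4 to the ERF list. GSTU7 (AT2G29420), a glutathione transferase, differed by 1.28 ± 0.18 log2 in that direction.

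Several wall protein genes among the 12 were lowest at 10 µM. PRP3 (AT3G62680), a proline-rich wall protein known from root hairs, was at 16.1, 12.2 and 19.6 CPM in the controls, 25.5, 28 and 29.6 at 0.1 µM, 31.7, 20.7 and 39.8 at 1 µM and 5.71, 7.26 and 7.75 at 10 µM. The 10 µM libraries were below every control and the 0.1 and 1 µM libraries above every control. EXT10 (AT5G06640), an extensin, was at 10.1, 5.83 and 3.81 CPM in the controls, 21.7, 21.9 and 21.9 at 0.1 µM, 8.98, 18.4 and 29.5 at 1 µM and 1.27, 2.12 and 1.99 at 10 µM, and 1 library of 1 µM lay in the control range. AT3G54580, an extensin-like gene, was at 30.8, 51.9 and 43.5 CPM in the controls, 73.2, 53.7 and 71.2 at 0.1 µM, 77.8, 44.9 and 97.2 at 1 µM and 14, 24.8 and 10.8 at 10 µM, with the 10 µM libraries below the controls. EXT6 (AT2G24980), which has a near-identical copy, was at 5.06, 8.16 and 5.44 CPM in the controls, 14.6, 15.3 and 15.4 at 0.1 µM, 13.2, 9.21 and 13.5 at 1 µM and 1.9, 2.72 and 2.66 at 10 µM. As for PRP3, its 10 µM libraries were below every control and its 0.1 and 1 µM libraries above every control.

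Of 20 tested genes annotated as extensins or extensin-like, a set drawn after the values were seen, 10 were called among doses. Over all genes the share called was 1.62%, which also applies to the root markers below. All 10 were lower at 10 than at 1 µM. The other 10 were not called, and 4 of the 20, PERK10, AT1G77400, AT2G25920 and PERK1, had a log2 difference above 0 between 10 and 1 µM. Of the 20, 5 had a near-identical copy. Summed over the 20, levels were 8309 to 10284 CPM in the controls, 9079 to 12415 CPM at 0.1 µM, 7080.1 to 9615 CPM at 1 µM and 6228 to 9684 CPM at 10 µM. The ranges of the controls and of all doses overlapped one another. Of the 11 root markers, 3 were called, PRP3, TIP2;3 (AT5G47450) and the peroxidase AT4G26010, and the list's medians were 0.48, 0.46 and -0.86 at 0.1, 1 and 10 µM. At 10 µM the summed root markers were 214 to 279 CPM. They were 398 to 417 CPM at 0.1 µM, 359 to 466 CPM at 1 µM and 267 to 367 CPM in the controls; the 10 µM range met that of the controls and lay below those of the other doses. The control with a code beginning with 8 had 322 CPM, above all 10 µM libraries. The part of the root share in these gene differences was not tested. In the pooled contrast the list's median was 0.16, with no member under an unadjusted p of 0.05; CASP1 (AT2G36100), of the Casparian strip, was at 0.33 ± 0.17 log2 and AT1G62500 at -0.24 ± 0.12 log2.

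FTM1 (AT1G43800), a desaturase gene of the hypoxia list, was at 16.1, 23.3 and 27.7 CPM in the controls, 20.2, 55.6 and 36.5 at 0.1 µM, 62.3, 56.4 and 61.6 at 1 µM and 8.89, 11.5 and 5.76 at 10 µM. All 10 µM libraries were below the controls and all 1 µM libraries above them, a log2 difference of -2.82 ± 0.34. AT1G62510, annotated as a lipid-transfer protein, was at 218, 177 and 228 CPM in the controls, 242, 279 and 215 at 0.1 µM, 247, 257 and 210.1 at 1 µM and 103, 124 and 91.2 at 10 µM. It was lower in every 10 µM library than in any other library, and the ranges of the remaining groups overlapped.

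**Figure D4:**
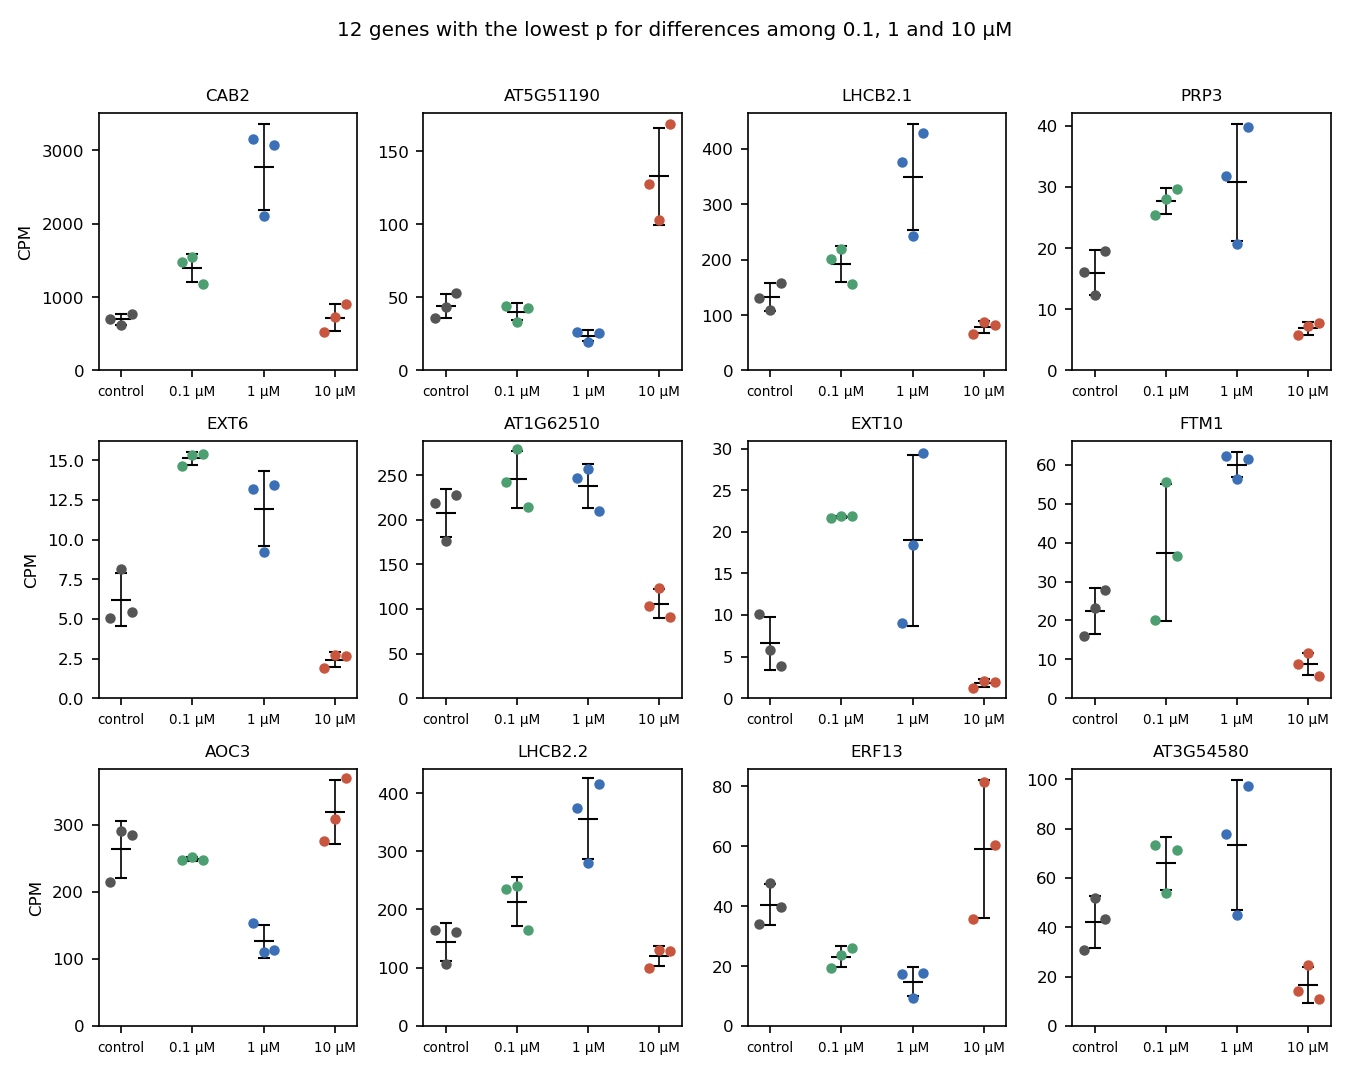
CPM in each library (points) with the mean and SD of 3 libraries (bars) for the 12 genes of lowest p in the test of differences among doses. AT5G51190 is highest at 10 µM, AOC3 is lowest at 1 µM, and the extensins and PRP3 are lowest at 10 µM.

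The pooled contrast depended on the 10 µM libraries. With the mean of 0.1 and 1 µM against the controls, 23 of 9304 genes (0.247%) were called in edgeR, 5 higher (0.0537%) and 18 lower (0.193%). Without 1 µM 0 genes passed, with 689 at an unadjusted p under 0.05, and without 0.1 µM 0 passed, with 530. The genes higher at 0.1 and 1 µM were CAB2 (1.51 ± 0.15 log2, edgeR adjusted p = 0.000396), LHCB2.1, LHCB2.2, LHCB3 and AT2G15880, a leucine-rich repeat protein gene. Those lower included CT-BMY (-1.0 ± 0.14), RBCS1B (-1.09 ± 0.20), LOX3 (-0.84 ± 0.13), AOS (-0.79 ± 0.15), CYP94B3 (-0.81 ± 0.12), ERF13 (-1.08 ± 0.19), DDF1 (-1.11 ± 0.21) and UBQ11 (-0.60 ± 0.10), with edgeR adjusted p-values from 0.0191 to 0.0416. Further genes in that direction were CORI3 (AT4G23600), a jasmonate-induced cystine lyase, the uncoupling protein gene UCP5 (AT2G22500) and LEA14 (AT1G01470), a late embryogenesis abundant protein. Of the 23 genes 18 were also among the 157 of 9716 genes (1.62%) that differed among doses. Both tests use the 0.1 and 1 µM libraries, so this overlap is a description only.

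Restricting the comparison to libraries whose code begins with 7, 6 treated against 2 controls, gave 24 genes, 2 higher and 22 lower. In the fit of all 12 libraries, 0.1 µM alone gave 0 called genes (788 at an unadjusted p under 0.05), 1 µM gave 56 (0.576%), 10 higher and 46 lower, and 10 µM gave 4 (0.0412%), 1 higher (0.0103%) and 3 lower (0.0309%). In a fit that also held the 100 µM libraries these counts were 0, 19 and 1. All of them share the 3 control libraries.

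**Figure D5:**
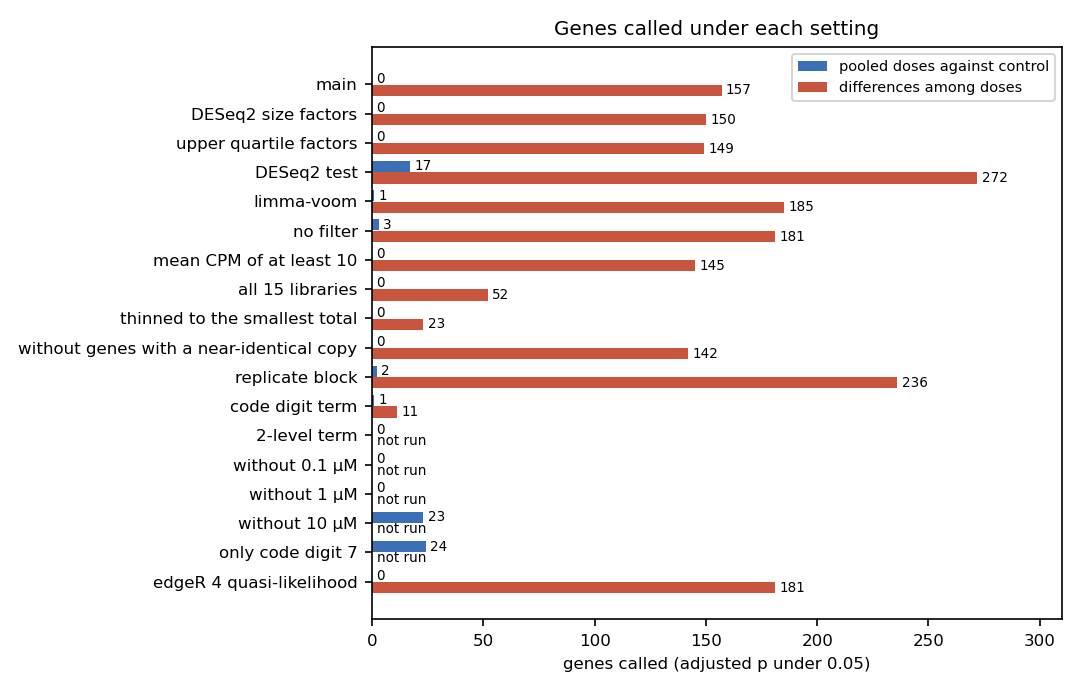
Number of genes with an adjusted p under 0.05 in each setting, for the pooled doses against control (upper bar) and for differences among doses (lower bar). The pooled count is 0 in the first setting and 23 without 10 µM. The count among doses is 157 and falls to 11 with the code digit as a term, which rests on the controls alone.

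At 100 µM, which shares the controls, 3392 of 10374 genes (32.7%) were called in edgeR. Values for some of the genes above are set side by side. They were picked without a stated rule and do not describe the other named genes. UBQ11 had a pooled log2 fold change of -0.55 ± 0.10 and -1.54 ± 0.15 at 100 µM. AT2G35290 had -0.54 ± 0.10 and -3.90 ± 0.21, MLP43 -0.64 ± 0.12 and -1.04 ± 0.47, and AT5G17350 -0.79 ± 0.16 and -2.05 ± 0.23. For CAB2 the values were 1.02 ± 0.16 and 1.41 ± 0.20, for LOX3 -0.63 ± 0.12 and -3.41 ± 0.21, and for CYP94B3 -0.63 ± 0.11 and -2.11 ± 0.17. AT5G51190, at 1.60 in the 10 µM libraries, was at -2.32 ± 0.27 at 100 µM.

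The share of counts from organelle genes served as a check of library composition. Chloroplast genes took 0.468% ± 0.020 (SD, n = 3) of counts in the controls and 0.516% ± 0.089 (SD, n = 9) in the treated libraries (exact two-sided permutation test, p = 0.364, adjusted over both shares 0.482). Mitochondrial genes took 1.02% ± 0.15 (SD, n = 3) and 1.1% ± 0.19 (SD, n = 9; exact two-sided permutation test, p = 0.482, adjusted 0.482). The smallest p this design allows is 0.00909.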

How the data were processed

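The deposited table holds raw counts of 14190 genes in 15 libraries, per the file headers without filtering on molecular identifiers, so counts include amplification copies. Per the submitters' processing notes, the authors used bcl2fastq 2.17.1.14, cutadapt 1.8.3, STAR, HTSeq and DESeq2. The build, annotation and strand setting remain not given in the sources used here; no coordinates or sequences are printed. Only the raw-count columns of the 15 libraries were read, and the authors' own comparison columns were not used. Symbols came from the TAIR10.1 table, which matched 14103 identifiers.

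Counts of 12 libraries entered edgeR 4.0.16 (R 4.3.3): TMM factors, filterByExpr by group (9716 genes), a 4-level group term and quasi-likelihood F tests of the mean of the doses minus control, of differences among doses (2 contrasts jointly) and of single doses, Benjamini-Hochberg adjusted over all genes with a threshold of 0.05. Errors beside log2 fold changes are standard errors. CPM used TMM-adjusted totals. Values at 100 µM came from a fit of all 15 libraries. Scripts were tested on simulated data. A near-identical copy is an alignment of at least 75 bases at 90% identity between the last 500 bases of transcripts. Totals of 834190 to 4554702 counts limit precision for low genes.

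Genes were named as the 5 of lowest p per direction with no overlap and at least 10 CPM, plus up to 2 of lowest p per list; the 12 among doses were added after their values were seen. The comparison and the lists were chosen with earlier results of these data known. Alternatives changed the scaling, the test (DESeq2 1.42.0, limma 3.58.1), the filter, the depth, the libraries and the terms of the fit.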

Additional observations from a re-analysis of the deposited data

Results flagged for a closer look

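Of 77 values tested over the 9 treated libraries, 2 had a library far from the other 8; chance flags about 1 in 20. BAM1 was at 90.5 CPM in 0.1 µM replicate 1, the lowest of the treated libraries, and GSTF8 was at 2958 CPM in 10 µM replicate 2, the highest.

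The treated doses differed from each other in 157 genes, although they were pooled. Of the named genes 23 did so by edgeR's quasi-likelihood test. They include the 12 genes named for their lowest p in this same test, whose passing followed from that choice. Benjamini-Hochberg adjusted p-values over all genes were as follows. For light harvesting and photosynthesis, CAB2 had 0.000125, LHCB2.1 0.000125, LHCB2.2 0.00122, LHCB3 0.00259 and RBCS1B 0.00405. For jasmonate genes, AOC3 had 0.000893, CYP94B3 0.0029, AT5G05600 0.0191 and LOX3 0.0267. For transcription factors, AT5G51190 had 1.44e-05, ERF13 0.00203, AT1G22810 0.00245, ERF104 0.0172 and DDF1 0.0472. For wall proteins, PRP3 had 0.000844, EXT6 0.000852, EXT10 0.000866 and AT3G54580 0.00203. AT1G62510 had 0.000866, FTM1 0.000884, CT-BMY 0.00278, AT2G35290 0.00406 and PIP1A 0.0458.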

How the results depend on the processing

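The pooled count of 0 called genes stayed at 0 with DESeq2 size factors, upper quartile factors, a minimum mean of 10 CPM, all 15 libraries, thinned counts, no near-identical copies, a 2-level term, without 0.1 µM, without 1 µM and in the bias-adjusted fit of edgeR 4, the last chosen after seeing the data. It was 17 with DESeq2 (6593 genes without an adjusted p), 1 with limma-voom, 3 without a filter, 23 without 10 µM, 1 with a term for the code digit, 24 with codes beginning with 7 only, and 0 to 1 without each library in turn. The 157 genes that differ among doses became 272 with DESeq2, 52 with all 15 libraries, 23 with thinned counts, 11 with the code digit and 51 to 214 without each library; the cause was not tested. Single doses in the fit of 15 libraries gave 19 genes at 1 µM and 1 at 10 µM, against 56 and 4, a setting added after seeing the data, as were the summed LHCB families. Genes with no overlap numbered 105 and 124 to 529 without each library.

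A replicate block gave 2 called genes for the pooled doses and 236 among doses. The numbers were not taken to pair the libraries: 6 of 18 same-numbered pairs had a correlation of deviations over 0.1 (range -0.12 to 0.29), and 4 of 12 libraries correlated best with their own number. Of 1819 recomputed values of 63 named genes, 1783 kept their direction and side of the threshold, 33 in 12 genes passed it, and 3 changed sign: BOA to 0.21 with thinned counts, and EDS5 to 0.19 with codes beginning with 7 only and to 0.28 without control replicate 2 (-1.06 to 0.28 without each library). With thinned counts PHYD was at 0.02. The organelle differences stayed above 0 in each alternative, at 0.03 to 0.07 percentage points for chloroplast and 0.03 to 0.17 for mitochondrial genes. Standard errors are larger for low genes, which limits what 3 controls can show.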

Other observations

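Of 6797 tested genes with a mean of at least 10 CPM, 7 had libraries of the same group that differed 20-fold or more (with lower values set to 0.5 CPM), a rule chosen after the values were seen. AT3G43850, an uncharacterised gene, was at 106, 68.2 and 0 CPM in the controls, 1.17, 53.7 and 0 at 0.1 µM, 111, 1.15 and 116 at 1 µM and 0, 0.605 and 0.664 at 10 µM. High and near-absent libraries thus occurred within 3 of the 4 groups. Its pooled log2 fold change of -2.64 ± 1.01 did not pass (edgeR adjusted p = 0.595).

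PR1 (AT2G14610), the classical marker of salicylate defence, was at 202, 362 and 14.7 CPM in the controls and 24 to 375 CPM in the treated libraries. NATA1 (AT2G39030), an ornithine acetyltransferase known to respond to jasmonate, was at 1.84 to 39.7 CPM in the controls, 1.17 to 22.3 CPM at 0.1 µM, 5.45 to 15.6 CPM at 1 µM and 6.2 to 16.9 CPM at 10 µM. The chloroplast gene ATCG00710 was at 110 CPM in 0.1 µM replicate 3 and at most 5.76 CPM in the other libraries, and ATCG01310 was at 118 CPM in 10 µM replicate 1 and at most 8.98 CPM in the others. The remaining 2 genes were AT2G07870, annotated as other RNA, and AT4G14320, a ribosomal protein gene.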
